A study of Mus musculus with 6 samples.

Results

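Small leucine-rich proteoglycans are secreted proteins of the extracellular matrix that bind collagen fibrils. The 9 genes *Dcn*, *Lum*, *Bgn*, *Fmod*, *Ogn*, *Prelp*, *Omd*, *Aspn* and *Podn* were taken by name from the expression values of 6 stromal populations of the mouse omentum, the fold of fat in the abdomen that holds lymphoid clusters called milky spots. All 9 were found among 23352 gene symbols, each under a single entry. The populations, P1 to P6, were sorted by FACS from WT C57BL/6 mice, and 1 RNA-seq library was made from each. All were CD45-. Cells that carried CD140a and CD105 were divided by aldehyde dehydrogenase (ALDH) activity into P1 (high), P2 (intermediate) and P3 (low). Those with CD140a but no CD105 gave P4 (intermediate) and P5 (low). P6 took the ALDH-positive cells whose CD140a was low. The age of the mice and the number behind each library are not given in the sources used here.

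Levels were FPKM, a count of fragments scaled to gene length and library depth, so that genes can be set side by side. Series of 6 values run in the order P1 to P6. The depth estimated from the steps of low FPKM values was 53.1, 61.5, 60.4, 58.4, 61.6 and 36.8 M reads from P1 to P6. With 1 library for each population, the spread between mice was not measured and no p-value was computed. Ratios are given with 95% intervals that cover counting error only, and a gene was called different when the larger FPKM was at least 2 times the smaller and at least 1. *Eng*, which encodes CD105, lay between 42.6 and 52.4 FPKM in P1, P2 and P3 and at or below 0.728 FPKM in P4, P5 and P6. *Pdgfra*, which encodes CD140a, was 5.36 FPKM in P6 and at least 117 FPKM elsewhere, and *Ptprc*, which encodes CD45, did not exceed 0.755 FPKM, so these 3 genes followed the gates. *Aldh1a2*, the most abundant of 3 ALDH genes in P1, had 469, 78.8, 134, 285, 145 and 209 FPKM from P1 to P6 and did not follow the order of the activity gates from P2 to P3.

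As background, each of these proteins has a core of leucine-rich repeats, and many carry chains of chondroitin or dermatan sulfate (decorin and biglycan) or of keratan sulfate (lumican and fibromodulin). They coat collagen fibrils and set their diameter and spacing, and several also bind growth factors of the TGF-β family. Fibroblasts are their main source in loose connective tissue, and decorin is a common marker of fibroblasts.

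Promoter sequences are shown for 4 members with their highest or lowest level in P6 or P1. *Fmod* and *Prelp* lie near each other on chromosome 1 and both had their highest level in P6, *Bgn* had its lowest level in P6, and *Ogn* had its highest level in P1. Promoter entries of RefSeq (GRCm38.p6) were matched by symbol for 7 of the 9 members, with no entry for *Dcn* and *Lum*. The 250 bases before the start are printed 5′ to 3′ on the strand of the gene. The window of *Fmod* is chr1:134037004-134037253 on the plus strand, and that of *Prelp* is chr1:133921402-133921651 on the minus strand. The window of *Bgn* is chrX:73483351-73483600 and that of *Ogn* chr13:49607765-49608014, both on the plus strand. In GENCODE M21, 13 bases of the window of *Prelp* lie in an exon of that gene, the window of *Ogn* lies in an intron of *Cenpp*, which runs on the opposite strand, and those of *Fmod* and *Bgn* lie between genes. Capitals mark matches, on either strand, to any of 6 motifs: the TATA box motif TATAAA, the CCAAT box of many promoters, the GC box motif GGGCGG, the AGGTCA repeat unit that retinoic acid receptors bind, the GGAATG motif of TEAD factors and the TGAGTCA motif of AP-1.
Fmod: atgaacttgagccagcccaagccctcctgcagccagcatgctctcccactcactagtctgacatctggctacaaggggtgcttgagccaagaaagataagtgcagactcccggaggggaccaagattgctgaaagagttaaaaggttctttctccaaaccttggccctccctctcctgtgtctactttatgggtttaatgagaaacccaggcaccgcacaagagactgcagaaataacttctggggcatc
Prelp: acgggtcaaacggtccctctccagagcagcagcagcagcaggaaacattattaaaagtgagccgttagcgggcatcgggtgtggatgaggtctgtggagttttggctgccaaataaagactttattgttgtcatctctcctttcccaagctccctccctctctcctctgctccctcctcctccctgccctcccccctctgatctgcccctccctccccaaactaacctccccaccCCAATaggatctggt
Bgn: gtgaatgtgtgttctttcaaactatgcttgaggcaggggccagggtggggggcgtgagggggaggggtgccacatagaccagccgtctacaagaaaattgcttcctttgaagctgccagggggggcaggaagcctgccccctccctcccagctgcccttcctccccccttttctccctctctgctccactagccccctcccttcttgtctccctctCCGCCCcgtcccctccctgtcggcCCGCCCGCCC
Ogn: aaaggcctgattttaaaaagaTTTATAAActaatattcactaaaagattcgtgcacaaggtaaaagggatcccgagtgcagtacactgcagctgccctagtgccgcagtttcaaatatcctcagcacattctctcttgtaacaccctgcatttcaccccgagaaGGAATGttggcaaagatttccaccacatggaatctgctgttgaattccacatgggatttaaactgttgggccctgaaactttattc
None of the 6 motifs matched in the window of *Fmod*. That of *Prelp* held CCAAT, which starts 15 bases before the start of the RefSeq entry and runs into the GENCODE exon, and that of *Bgn* held 3 matches to GGGCGG, all on the minus strand, of which the 2 nearest the start overlap. The window of *Ogn* held TATAAA on both strands, as overlapping matches, and GGAATG. In the same 250 bases of all 32851 promoters of the table, TATAAA was found in 12.4%, CCAAT in 33.8%, GGGCGG in 32.7%, AGGTCA in 14.0%, GGAATG in 12.6% and TGAGTCA in 4.46%. Bases G and C made up 51.2% of the window of *Fmod*, 55.6% in *Prelp*, 64.4% in *Bgn* and 42% in *Ogn*, against a median of 52.4% over all promoters. Of the members not printed, *Omd* held AGGTCA, *Aspn* held TATAAA and CCAAT, and *Podn*, which has 2 starts, held GGGCGG at one and AGGTCA at the other. A match describes the letters of a window and was not tested as a site.

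*Dcn* encodes decorin, the class I member that binds type I collagen and TGF-β. Its level was 5615, 5871, 5164, 5250, 4859 and 4350 FPKM from P1 to P6. It was therefore high in every library, and the highest value was 1.35 times the lowest. In bulk libraries, fewer cells of a type and less RNA per cell cannot be told apart. *Dcn* was the most abundant gene of P1, P2, P3, P5 and P6 and was preceded in P4 by *Gsn*, which encodes the actin-severing protein gelsolin. *Gsn* had 5350 FPKM in P4 but was listed at 0 in P1, P2 and P3, and a listed 0 in these files can be a failed estimate, since *Col3a1* in P2 and *Fn1* in P1 were also listed at 0. The first place of *Dcn* in P1, P2 and P3 is therefore given without *Gsn*. In the order of its levels, P4 and P3 were the nearest neighbours, with a ratio of 1.02 (1.01 to 1.02), and all 4 other scalings of the libraries reversed them.

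*Bgn* encodes biglycan, the other class I member with chondroitin or dermatan sulfate chains and a ligand of the innate receptors TLR2 and TLR4. Its level was 569, 820, 751, 395, 472 and 67.3 FPKM from P1 to P6. It was the second most abundant member in P1 to P5 and the sixth in P6, and its highest value was 12.2 times its lowest. The order was P2, P3, P1, P5, P4 and P6, and the interval of each ratio between neighbours lay above 1. Quantile normalization reversed P1 and P5.

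*Aspn* encodes asporin, the class I member with a run of aspartate residues in place of glycosaminoglycan chains. It was the least abundant member from P1 to P5, at 0.614, 2.6, 1.51, 0.412 and 0.331 FPKM. In P6 it was listed at 0, which can be a failed estimate, so no place is given there. The values from P1 to P5 rest on few reads, from an estimated 340 in P2 down to 43 in P5. P2 and P3 stood above P1, P4 and P5, and P4 and P5 did not differ beyond counting error, with a ratio of 1.25 (0.832 to 1.87).

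*Lum* encodes lumican, a class II keratan sulfate proteoglycan of thin collagen fibrils. Its level was 345, 287, 229, 143, 56.4 and 6.19 FPKM from P1 to P6. The values went down step by step from P1 to P6, all 5 ratios between neighbours had intervals above 1, and no other scaling changed the order. P1 had 55.8 times the level of P6 (51.2 to 60.9).

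*Fmod* encodes fibromodulin, the class II relative of lumican that binds the same site on collagen. It had 1.77, 21.2, 21.3, 18.3, 14.9 and 296 FPKM from P1 to P6. P6 was set apart at the top and P1 at the bottom, and the ratio between them was 167 (149 to 189), the widest range of the members with a value in every library. P2 and P3 did not differ beyond counting error, at a ratio of 1 for P3 over P2 (0.959 to 1.05), and 3 other scalings reversed their order. The places among all genes changed accordingly, since *Fmod* ranked 10453 in P1 and 185 in P6, while *Lum* ranked 201 in P1 and 8071 in P6.

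*Prelp* encodes a class II member with a basic end that binds heparan sulfate and basement membranes. Its level was 108, 135, 117, 135, 131 and 198 FPKM from P1 to P6. P6 was highest, at 1.47 times P2 (1.44 to 1.49), and the other values lay close together. P2 and P4 did not differ beyond counting error, at a ratio of 1 (0.985 to 1.02). No population passed 2 times another for this gene.

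*Omd* encodes osteomodulin (osteoadherin), a class II member best known from bone. It was low throughout, at 2.76, 4.72, 3.16, 1.81, 0.973 and 2.32 FPKM from P1 to P6. P2 was highest and P5 lowest. P3 and P1, at 1.15 (0.987 to 1.33), and P1 and P6, at 1.19 (0.987 to 1.43), did not differ beyond counting error, and quantile normalization reversed P3 and P1.

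*Ogn* encodes osteoglycin (mimecan), the class III member. Its level was 410, 293, 227, 221, 111 and 118 FPKM from P1 to P6. P1 was highest, P5 and P6 formed the low end, and the highest value was 3.7 times the lowest. The closest neighbours, P3 and P4, had a ratio of 1.03 (1.01 to 1.04).

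*Podn* encodes podocan, a class V member that binds collagen. It had 36, 38.5, 25.1, 21.5, 10.6 and 96.7 FPKM from P1 to P6. From P2 to P5 the values went down with every step, and P6 was above them all. P6 had 9.12 times the level of P5 (8.69 to 9.57).

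**Figure D1:**
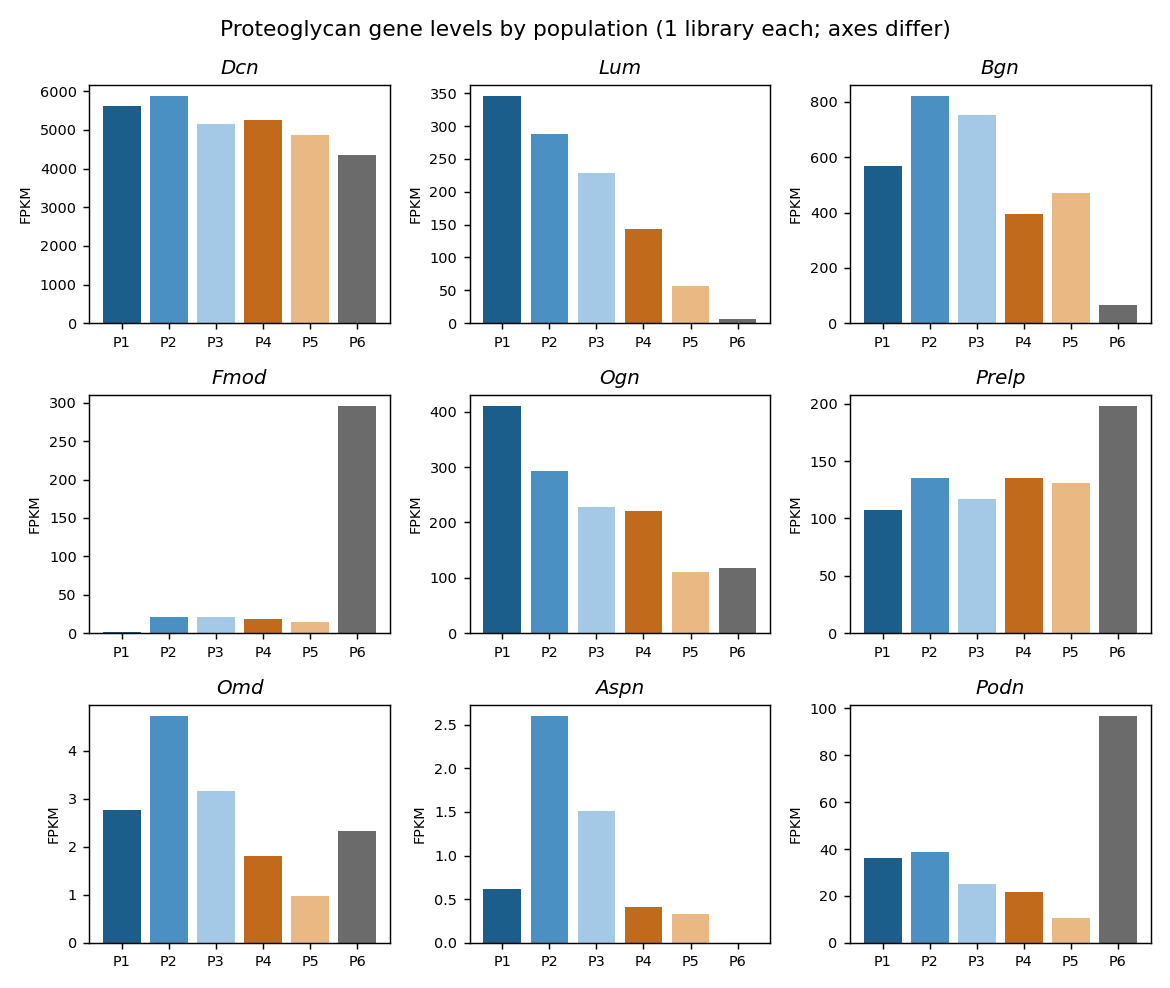
Bars show the FPKM of each of the 9 genes (vertical axis from 0, scale differs between panels) in P1 to P6 (horizontal axis), with 1 library each and no error bar. *Dcn* was high in all 6 populations, *Lum* went down from 345 in P1 to 6.19 in P6, and *Fmod* was highest in P6, at 296.

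The 9 members together made up 7089, 7474, 6539, 6186, 5656 and 5135 FPKM from P1 to P6, which is between 1.33% of all FPKM in P6 and 1.88% in P2. *Dcn* took between 78.6% of the member sum in P2 and 85.9% in P5. The composition of the rest differed between P6 and the other libraries. Without *Dcn*, *Bgn* took 38.6%, 51.2%, 54.6%, 42.2% and 59.2% of the sum from P1 to P5, but 8.58% in P6. *Fmod* took 37.7% in P6 and at most 1.95%, in P4, elsewhere. *Lum* took 23.4% in P1, 7.07% in P5 and 0.788% in P6. *Prelp* took 25.2% in P6 and from 7.31% in P1 to 16.4% in P5 elsewhere, and *Podn* 12.3% in P6 against at most 2.44%, in P1, elsewhere. *Bgn* thus had the largest share without *Dcn* in P1 to P5, and *Fmod* had it in P6. In P6, *Bgn* also stood below *Prelp*, *Ogn* (15.1%) and *Podn*. These shares do not depend on the scaling between libraries by a common factor.

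**Figure D2:**
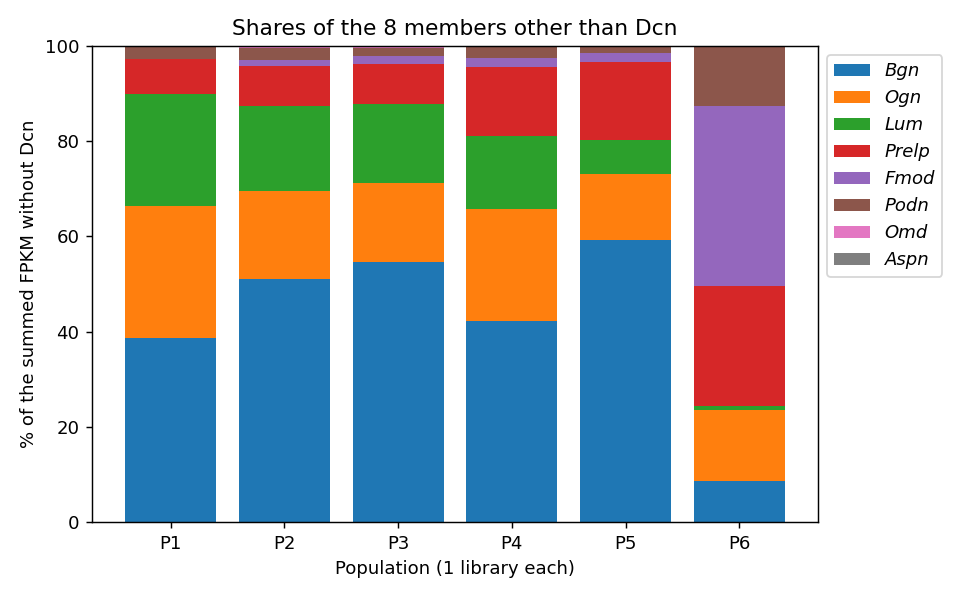
Stacked bars show the share of each of 8 members (vertical axis, % of the summed FPKM without *Dcn*) in P1 to P6 (horizontal axis, 1 library each). *Bgn* is the largest block in P1 to P5, from 38.6% to 59.2%, and *Fmod* is the largest in P6, at 37.7%.

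P1 and P2 address high against intermediate ALDH activity within CD105+ cells. *Fmod* and *Aspn* were lower in P1, and no member was higher. P2 had 12 times the *Fmod* level of P1 (10.6 to 13.6) and 4.23 times the *Aspn* level (3.27 to 5.48). Of the 11803 genes at 1 FPKM or more in either library, 4.5% were lower in P1 and 1.05% were higher. The median log2 ratio of P1 over P2, with 0.1 added to both values, was -0.33 over the 9 members and -0.05 over all genes tested. *Ogn*, at 1.4 times (1.38 to 1.42), and *Lum*, at 1.2 times (1.19 to 1.22), lay above P2 in P1, while *Bgn* was 1.44 times higher in P2 (1.43 to 1.45). With a minimum of 5 FPKM, *Aspn* was not counted and 1 member was left. Quantile normalization moved the calls over all genes from 124 higher and 531 lower in P1 to 184 higher and 410 lower.

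P2 and P3 address intermediate against low ALDH activity within CD105+ cells. No member passed 2 times, while 1.16% of 11980 genes were higher in P2 and 2.75% were lower. The values of 8 members were higher in P2 and that of *Fmod* lay within counting error. The ratio of P2 over P3 was largest for *Aspn*, at 1.72 (1.44 to 2.05), and *Podn*, at 1.53 (1.48 to 1.59). *Dcn* stood at 1.14 (1.13 to 1.14). The median log2 ratio was 0.33 over the members and -0.03 over all genes tested. At a threshold of 1.5 times, 2 members, *Aspn* and *Podn*, would be called, but the share of all genes at that threshold was not computed.

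P4 and P5 address the same step of ALDH activity within CD105- cells. *Lum* and *Podn* were higher in P4, and none was lower. *Lum* had a ratio of P4 over P5 of 2.53 (2.47 to 2.6), and *Podn* of 2.03 (1.92 to 2.14). *Ogn* lay at the threshold, with 1.99 (1.95 to 2.03), and *Omd* at 1.87 (1.5 to 2.33). In this comparison 4.17% of 12022 genes were higher in P4 and 1.57% were lower. *Bgn* went the other way and was 1.2 times higher in P5 (1.18 to 1.21). The median log2 ratio was 0.56 over the 8 members that reached 1 FPKM in either library, which leaves out *Aspn*, and -0.04 over all genes tested. The number of members called moved with the setting. It was 1 when the libraries were scaled to a common sum of FPKM, 4 with division by *Gapdh*, 4 at 1.5 times, 0 at 3 times and 1 with a pseudocount of 1, and median of ratios and quantile normalization added *Ogn*. The direction of *Dcn*, 1.08 (1.08 to 1.08) for P4 over P5, was reversed by quantile normalization, and that of *Prelp*, 1.03 (1.01 to 1.05), by the common sum.

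P2 and P4 address the presence of CD105 at intermediate ALDH activity. *Lum*, *Bgn*, *Omd* and *Aspn* were higher in P2, and no member was lower. The ratios of P2 over P4 were 2.01 for *Lum* (1.98 to 2.05), 2.08 for *Bgn* (2.06 to 2.1), 2.6 for *Omd* (2.23 to 3.04) and 6.3 for *Aspn* (4.7 to 8.45). Of 12181 genes, 5.1% were higher in P2 and 7.94% were lower, so the 4 members were on the side with fewer genes. The members had a median log2 ratio of 0.84, against -0.08 for all genes. *Podn*, at 1.79 (1.72 to 1.86), and *Ogn*, at 1.33 (1.31 to 1.35), were also above P4 without reaching the threshold, and *Prelp* did not differ beyond counting error. *Bgn* was no longer called after quantile normalization, and division by *Gapdh* added *Podn*. In place of 4, the count was 2 with a minimum of 5 FPKM and 1 at 3 times. Division by *Gapdh* moved the calls over all genes from 621 higher and 967 lower to 1320 higher and 634 lower.

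P3 and P5 address the presence of CD105 at low ALDH activity. *Lum*, *Ogn*, *Omd*, *Aspn* and *Podn* were higher in P3, and again none was lower. *Lum* had the largest ratio of P3 over P5 among members above 5 FPKM, at 4.07 (3.97 to 4.17). *Podn* had 2.37 (2.25 to 2.5) and *Ogn* 2.05 (2.01 to 2.09). The low members *Aspn* and *Omd* had 4.57 (3.29 to 6.35) and 3.25 (2.65 to 3.98). Of 12152 genes, 7.55% were higher in P3 and 6.5% were lower. The median log2 ratio was 1.03 over the members and -0.09 over all genes. *Bgn* was at 1.59 (1.57 to 1.61) and *Fmod* at 1.43 (1.36 to 1.5), while *Prelp* was 1.12 times higher in P5 (1.1 to 1.14), a direction that division by *Gapdh* reversed. The count was 3 with a minimum of 5 FPKM and 3 at 3 times. *Aspn* was no longer called with a pseudocount of 1, which left 4 members, and division by *Gapdh* added *Bgn* and *Fmod*. Division by *Gapdh* changed the calls over all genes from 917 higher and 790 lower to 1745 higher and 411 lower. The comparisons within and across CD105 share the libraries of P2 to P5, so they are not independent of each other.

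**Figure D3:**
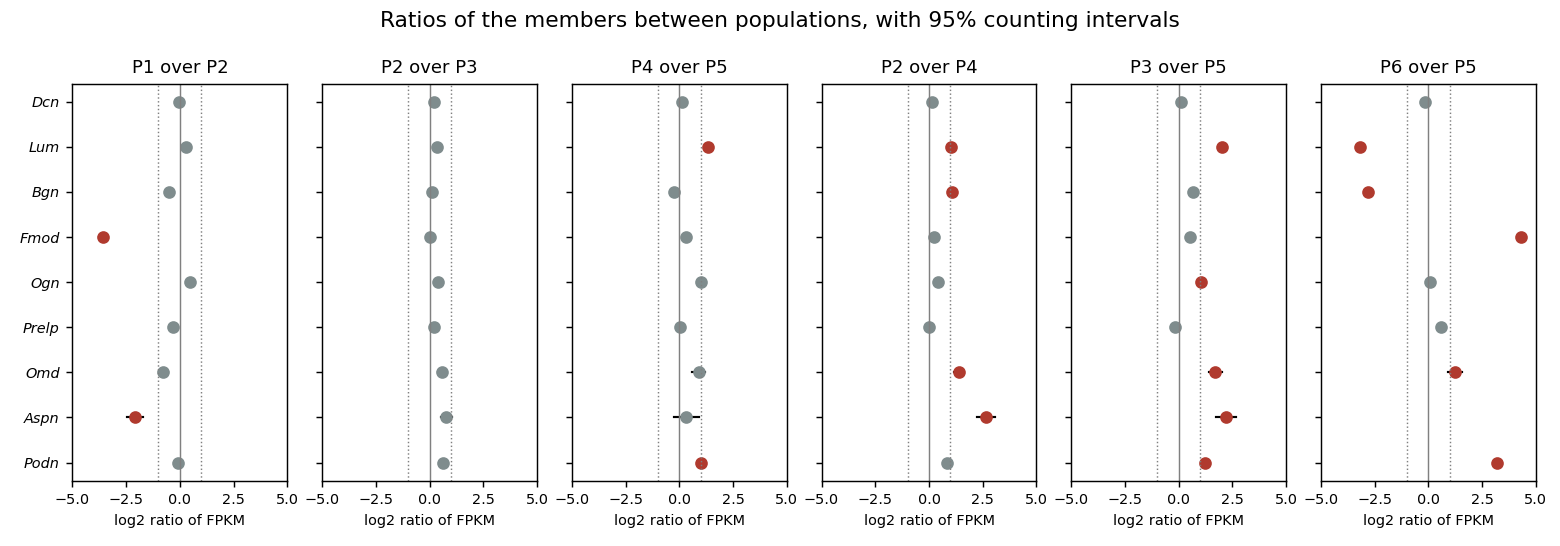
Points show the log2 ratio of FPKM (horizontal axis) of each member (vertical axis) in 6 comparisons, lines show the 95% counting interval, and dotted lines mark 2 times. Red points are past 2 times, as for *Fmod* in P1 over P2 and *Lum* in P3 over P5, and *Aspn*, listed at 0 in P6, has no point in P6 over P5.

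P6 differs from the other populations by its low CD140a, and each member was set against P1 to P5 one by one. *Fmod* and *Podn* were higher in P6 than in each of them, and *Lum* and *Bgn* were lower than in each. *Fmod* in P6 was 13.9 times its level in P3 (13.4 to 14.4), the nearest population, and *Podn* was 2.51 times its level in P2 (2.43 to 2.59). The level of *Lum* in P5, the lowest of the others, was 9.11 times that in P6 (8.33 to 9.96), and *Bgn* in P4 was 5.86 times that in P6 (5.7 to 6.03). Over 12904 genes, 6.45% were higher in P6 than in each of the others and 3.43% were lower. *Dcn* differed little, with a level in P5 of 1.12 times that in P6 (1.11 to 1.12), and division by *Gapdh* reversed this order. Quantile normalization placed *Dcn* in P6 above P4. *Ogn* in P6 lay between P4 and P5, and *Omd* between P1 and P4. At 3 times, 1 member, *Fmod*, would be called higher. Leaving any 1 of P1 to P5 out of the comparison, an alternative added after the data were seen, added no member and left both counts at 2. Leaving out a population can add a call but cannot remove one, so it is no check on the members called.

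Markers of other cell types were also high in P6. Of the 12 mesothelial markers, 11 were found, and their summed level was 75.8, 97.4, 153, 1019, 820 and 3200 FPKM from P1 to P6. Mesothelial cells form the surface layer of the omentum, and *Upk3b*, the most abundant of their markers in P4, P5 and P6, was 1140 FPKM in P6, 383 in P4 and 289 in P5 but 22.7 or less in P1, P2 and P3. There *Wt1* was the most abundant, with 50.3, 79.2 and 106 FPKM. In P6, 9 of the 11 were at least 2 times higher than in each other population, among them *Krt19* with 620 FPKM and *Upk1b* with 324, while *Cdh1* stayed at or below 0.0729 FPKM and was listed at 0 in P1 and P3. These markers were thus high where *Fmod* and *Podn* were highest and *Lum* and *Bgn* lowest. Across CD105, 9 of 10 tested were lower in P2 than in P4 and 7 of 8 tested were lower in P3 than in P5. Along ALDH activity, 3 of 10 tested (*Msln*, *Krt7* and *Krt18*) were higher in P4 than in P5, beside *Lum* and *Podn*, and 3 of 6 tested (*Upk3b*, *Lrrn4* and *Gpm6a*) were lower in P2 than in P3, with no call among 6 tested between P1 and P2. Their part in these results was not tested.

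The 18 pancreatic acinar markers were all found. They encode digestive enzymes, and their sum was 5.15, 279, 29.6, 1517, 177 and 2193 FPKM from P1 to P6, which is 0.57% of all FPKM in P6. *Amy2a5*, which had the highest value of the list, had 0.782 FPKM in P1 and 707 in P6. *Zg16* and *Pla2g1b* were listed at 0 in P1. All 18 were at least 2 times higher in P4 than in P5, beside the calls of *Lum* and *Podn*, and all 18 were higher in P4 than in P2. Of 17 tested, all were lower in P1 than in P2, higher in P2 than in P3 and lower in P3 than in P5. None of the 18 was called higher in P6 than in each other population, because P4 was within 2 times. The adipocyte list, with 8 of 8 found, summed to 176, 146, 239, 219, 350 and 340 FPKM from P1 to P6. Its most abundant gene, *Fabp4*, had 349 FPKM in P5, and 6 of the 8, such as *Cfd* with 114 FPKM and *Adipoq* with 14.7, were called higher in P6, where *Lep* was listed at 0. *Plin1* was higher in P2 than in P4 and higher in P3 than in P5. The part of the acinar and adipocyte markers in the results was not tested.

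The 12 endothelial markers summed to 3.12, 4.64, 6.44, 20.1, 12.6 and 115 FPKM from P1 to P6. Most of the sum in P6 was *Esam*, with 62 FPKM, and *Kdr*, with 46.9, while the defining markers *Pecam1* and *Cdh5* did not exceed 0.992 and 0.343 FPKM. *Esam*, *Kdr* and *Egfl7* were the 3 endothelial genes called higher in P6. *Esam* and *Kdr* were lower in P2 than in P4 and in P3 than in P5, where *Lyve1* was higher in P3. *Esam* was also lower in P2 than in P3, and *Kdr* was higher in P4 than in P5. The mural list, with 8 of 8 found, summed to 67.7, 161, 268, 203, 329 and 119 FPKM from P1 to P6, with *Des* (198 FPKM in P3) as its most abundant gene. *Des* encodes desmin, which is also found in fibroblasts of lymphoid organs, while *Rgs5* did not exceed 0.553 FPKM and *Cspg4* 0.258 in P1 to P5. Beside the calls of *Fmod* and *Aspn*, 4 of 5 mural genes tested (*Des*, *Myh11*, *Acta2* and *Kcnj8*) were lower in P1 than in P2. *Myh11* and *Acta2*, genes of smooth muscle, were also lower in P2 than in P3, in P2 than in P4 and in P3 than in P5, while *Tagln* was higher in P2 than in P4. Both calls between P3 and P5 were lost under another scaling. Although the mural sum of P6 was below those of P2 to P5, *Acta2*, *Cspg4* and *Mcam* were called higher there, beside *Fmod* and *Podn*. The myeloid list, with 7 of 8 found, summed to 40.5, 75.7, 80.4, 174, 132 and 194 FPKM from P1 to P6, with *Cd74* (157 FPKM in P4) as its most abundant gene. The myeloid genes called did not move together. *Cd74* was lower in P2 than in P4 and in P3 than in P5, while *Fcer1g* and *Tyrobp* were higher in P2 than in P4 and, with *Lyz2*, higher in P3 than in P5. *Cd74* and *Cd68* were lower in P1 than in P2, beside *Fmod* and *Aspn*, and *Cd68* and *Csf1r* were higher in P6. The 8 lymphoid markers summed to 6.16, 8.24, 2.79, 2.8, 1.75 and 4.95 FPKM from P1 to P6, and *Cd79a* had their highest value, 3.21 FPKM in P2. All 3 lymphoid genes tested between P2 and P3 and between P2 and P4 were higher in P2. The erythroid list, with 3 of 5 found, summed to 45.5, 44.1, 139, 55.8, 87.8 and 173 FPKM from P1 to P6, led by *Hba-a1*, which was lower in P2 than in P3. *Hba-a2* was called in all 5 pairs, with 9.92, 0.00752, 7.89, 4.25, 0.00657 and 0.0113 FPKM from P1 to P6. *Hba-a1* was at least 35.2 FPKM in every library. Each call of *Hba-a2* rests on its value near 0 in P2 or P5, which, like a listed 0, can be a failed estimate. Of these markers, *Kdr* is also among the receptors and *Cspg4* among the other matrix proteoglycans described here. The part of these lists in the results was not tested. None of the 10 housekeeping genes, of which *Eef1a1* had the highest value, was called in any of these 6 comparisons.

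Several members lie next to each other in the genome (GRCm38, GENCODE M21). *Dcn* (chr10:97479609-97518143, plus strand) and *Lum* (chr10:97565128-97572703, plus strand) are 47 kb apart, yet the levels of *Dcn* spanned 1.35 times and those of *Lum* 55.8 times. *Prelp* (chr1:133910304-133921414, minus strand) and *Fmod* (chr1:134037254-134048277, plus strand) are 116 kb apart, and P1 was lowest and P6 highest for both. *Aspn* (chr13:49544443-49567565), *Omd* (chr13:49582462-49592822) and *Ogn* (chr13:49608046-49624501) follow each other on the plus strand with gaps of 14.9 and 15.2 kb. All 3 were called higher in P3 than in P5, although their levels lay far apart, with 227 FPKM for *Ogn* and 1.51 for *Aspn* in P3. In P2 over P4, *Omd* and *Aspn* were called and *Ogn*, at 1.33, was not. Between P1 and P2, *Ogn* had the higher value in P1 and *Omd* and *Aspn* had it in P2. *Bgn* (chrX:73483602-73495933, plus strand) and *Podn* (chr4:108014791-108096445, minus strand) have no other member beside them. *Cenpp* covers *Aspn*, *Omd* and *Ogn* on the opposite strand and shares 7 exon bases with *Aspn* and none with the others, and an antisense transcript shares 350 of 3615 exon bases with *Prelp*. Whether counting used strand is not given in the sources used here, so reads of *Prelp* and of this antisense partner cannot be told apart there. The longest run of bases shared between transcripts of any 2 family genes, over 136 pairs, was 50, which is shorter than the sequencing reads.

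*Ecm2* and *Tsku* were the only ones of 8 further family genes that reached 1 FPKM in any library. *Ecm2*, which lies beside *Aspn* on chromosome 13, had 55.8, 47.8, 38.9, 25.7, 9.97 and 7.54 FPKM from P1 to P6. Like *Lum* it went down from P1 to P6, and it was called in P4 over P5, at 2.58 (2.45 to 2.72), and in P3 over P5, at 3.91 (3.72 to 4.1). *Tsku*, which encodes the secreted signalling inhibitor Tsukushi, ran from 12.1 FPKM in P1 to 4.61 in P6 and was not called in the 6 comparisons. *Kera*, *Epyc*, *Optc*, *Chad*, *Nyx* and *Podnl1* stayed at or below 0.503 FPKM, the value of *Chad* in P6.

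Collagens are what these proteoglycans bind. Among 11 fibrillar collagen genes, *Col1a1* had 1263, 1618, 996, 898, 670.3 and 1735 FPKM from P1 to P6, with its highest value in P6, where *Lum* and *Bgn* were lowest. *Col3a1* ranged from 2100 FPKM in P5 to 3390 in P1, apart from its listed 0 in P2, and its calls in comparisons with P2 rest on that 0. *Col5a3* was called higher in P3 than in P5 and higher in P4 than in P5, with 62.7 FPKM in P3, 70.2 in P4 and 26.4 in P5. *Col24a1* was lower in P2 than in P4 and in P3 than in P5, and none of the 11 was called in P6. Of 11 fibril-associated and beaded collagen genes, *Col14a1* was the one called lower in P6, with 6.83 FPKM there and 334 in P1. *Col14a1* was also called in P3 over P5 and P4 over P5, and *Col6a6* in P2 over P4. Over the scalings tried, the calls of this list ran from 1 to 6 in P2 over P4 and from 1 to 5 in P3 over P5. *Col6a5*, a chain of type VI collagen, was lower in P1, at 57.6 FPKM, than in P2, at 300.2, as were *Col6a6* and *Col12a1*.

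Fibril partners include enzymes and adaptors of fibril assembly. Of 13 genes, 6 were higher in P3 than in P5 (*Dpt*, *Fbn1*, *Tnxb*, *Lox*, *Pcolce2* and *Eln*), none was lower, and the median log2 ratio of 11 tested was 1.23, against -0.09 for all genes. *Dpt* encodes dermatopontin, a decorin-binding protein. Its level was 1634, 1389, 986, 650, 264 and 8.7 FPKM from P1 to P6. *Pcolce2*, an enhancer of procollagen processing, went from 252 FPKM in P1 to 19.9 in P5 and 1.69 in P6, and *Fbn1*, which encodes fibrillin, from 514 in P1 to 97 in P5. *Dpt*, *Pcolce2* and *Emilin1* were the 3 called lower in P6 than in each other population. Between P2 and P4, *Dpt* and *Lox* were higher in P2, and between P4 and P5, *Dpt*, *Fbn1* and *Pcolce2* were higher in P4. Over the scalings tried, from 1 to 7 fibril partners were called higher in P2 than in P4. *Fn1*, listed at 0 in P1, had 1258 FPKM in P2 and 187 in P6, and its call as lower in P1 rests on the 0. Against P2 to P5 alone it was also at least 2 times lower in P6, with 887 FPKM in P5 as the lowest of these, so the 0 in P1 also decides that it is not among the genes called lower in P6.

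Of 9 genes that build the linker of the glycosaminoglycan chains, 8 were found and none was called in any of the 6 comparisons, although *Ugdh*, which makes the glucuronic acid donor, had 228 FPKM in P1 and 40.5 in P6. Under other scalings, up to 2 of them were called in P4 over P5 and up to 2 in P3 over P5. Of 16 chondroitin and dermatan sulfate genes, *Chst15*, a sulfotransferase for chondroitin chains, had 19.4, 49.9, 48.6, 15.5, 17.3 and 7.31 FPKM from P1 to P6. P2 and P3 thus stood above the rest, as for *Bgn*, and *Chst15* was called in P1 against P2, P2 over P4, P3 over P5 and lower in P6. *Dse*, the epimerase that makes dermatan sulfate, ranged from 16.5 FPKM in P6 to 28.2 in P1 without a call, and *Chst11* was called higher in P6, at 2.71 FPKM. *Csgalnact1* was called in P4 over P5 and P3 over P5, and *Chst7* in P2 over P4.

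Of 8 keratan sulfate genes, 3 were higher in P6 and 1 was lower. *B4galt4*, a galactosyltransferase of keratan sulfate, had 5.58, 5.07, 5.04, 11.8, 11.2 and 28.8 FPKM from P1 to P6. *Chst4* reached 5.08 FPKM in P6 and *B3gnt7* 3.39, while both were at or below 0.284 FPKM in P1 to P5. *Chst1*, the sulfotransferase for galactose, went the other way, with 26.7 FPKM in P1 and 3.13 in P6. These 4 calls fell in the population with the highest *Fmod* and the lowest *Lum*. Among the pairs, *Chst2* was higher and *B4galt4* lower in P2 than in P4 and in P3 than in P5, and *Chst1* was higher in P4 than in P5. The call of *B4galt4* was lost under another scaling in both of its comparisons. The 4 genes of tyrosine sulfation, a modification of fibromodulin and osteomodulin, gave 1 call, *Papss2* in P3 over P5, with 11 against 5.42 FPKM. *Tpst1*, the most abundant, went from 86.6 FPKM in P1 to 40.6 in P6.

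Of 13 proteases that cleave these proteoglycans or their collagen, *Mmp2*, *Mmp3*, *Adamts1* and *Adamts4* were called lower in P6 and *Tll1* higher. *Mmp2*, a gelatinase, had 253, 212, 152, 103, 37.5 and 6.52 FPKM from P1 to P6. *Adamts4*, an aggrecanase, had 55.8, 62.5, 67.6, 24.5, 21.1 and 1.6 FPKM from P1 to P6. *Mmp2* and *Adamts4* were called in both comparisons across CD105, *Mmp3* in P2 over P4, *Mmp9* in P3 over P5 and *Mmp2* in P4 over P5. *Htra1*, with the highest value of the list, had 447 FPKM in P1 and 398 in P6, with 226 in P5. *Mmp9* was called lower in P1 than in P2 and lower in P2 than in P3, at 0.624, 1.32 and 4.11 FPKM.

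Among 14 receptors that bind these proteoglycans, the biglycan receptors *Tlr2* and *Tlr4* were detected in every library, between 7.36 and 13.2 FPKM and between 7.6 and 10.6 FPKM, and were not called. *Cd44*, with 15.6, 15.7, 31.3, 73.8, 106 and 28.9 FPKM from P1 to P6, was called higher on the CD105- side in both comparisons across CD105, as were *Kdr*, *Met* and *P2rx7*. Over the scalings tried, these calls ran from 3 to 4 between P2 and P4 and from 2 to 4 between P3 and P5. *Lrp1*, the endocytic receptor of decorin, had 424 FPKM in P2, the highest value of the list, and 132 in P6. *P2rx4* and *Itga2* were called lower in P6 and *Kdr* higher, and *Kdr* was higher in P4 than in P5. *Cd14* and *Met* were lower in P2 than in P3.

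Of 13 growth factors known to bind members of the family or to act beside them, 5 were higher in P2 than in P4 (*Igf1*, *Bmp4*, *Ctgf*, *Pdgfa* and *Wisp2*). In P3 over P5 there were also 5 higher, with *Hgf* in place of *Pdgfa*, and *Tgfb3* and *Bmp2* were lower. Both of these lower calls were lost under another scaling. *Ctgf* was the one called in P4 over P5. *Igf1* had 75, 125, 103, 39.3, 32.7 and 17.7 FPKM from P1 to P6. *Bmp4*, a ligand bound by biglycan, was 36.4 FPKM in P6 and at most 9.05 elsewhere, and it was the one called higher in P6. *Bmp4*, *Tgfb2*, *Pdgfa* and *Wisp2* were lower in P1 than in P2, the same direction as *Fmod* and *Aspn*. Over the scalings tried, from 2 to 4 of the growth factors were called lower in P1. *Tgfb3*, a TGF-β ligand, went from 20.1 FPKM in P1 to 88.4 in P6. Among 14 other matrix proteoglycans, *Spock3*, with 54.7 FPKM in P6 and at most 1.65 elsewhere, and *Cspg4*, with 1.09 in P6, were called higher in P6. *Vcan*, which encodes versican, had 49.1 FPKM in P1 and 8.56 in P6 and was called in P3 over P5 and P4 over P5. *Spock2* was higher in P2 than in P4 and in P3 than in P5, *Spock3* was higher in P4 than in P2 and in P5, and *Col18a1* was lower in P3 than in P5. *Col18a1*, the most abundant in P6, had 272 FPKM there and 74.3 in P2, and *Hspg2*, which encodes perlecan, ranged from 112 to 173 FPKM.

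**Figure D4:**
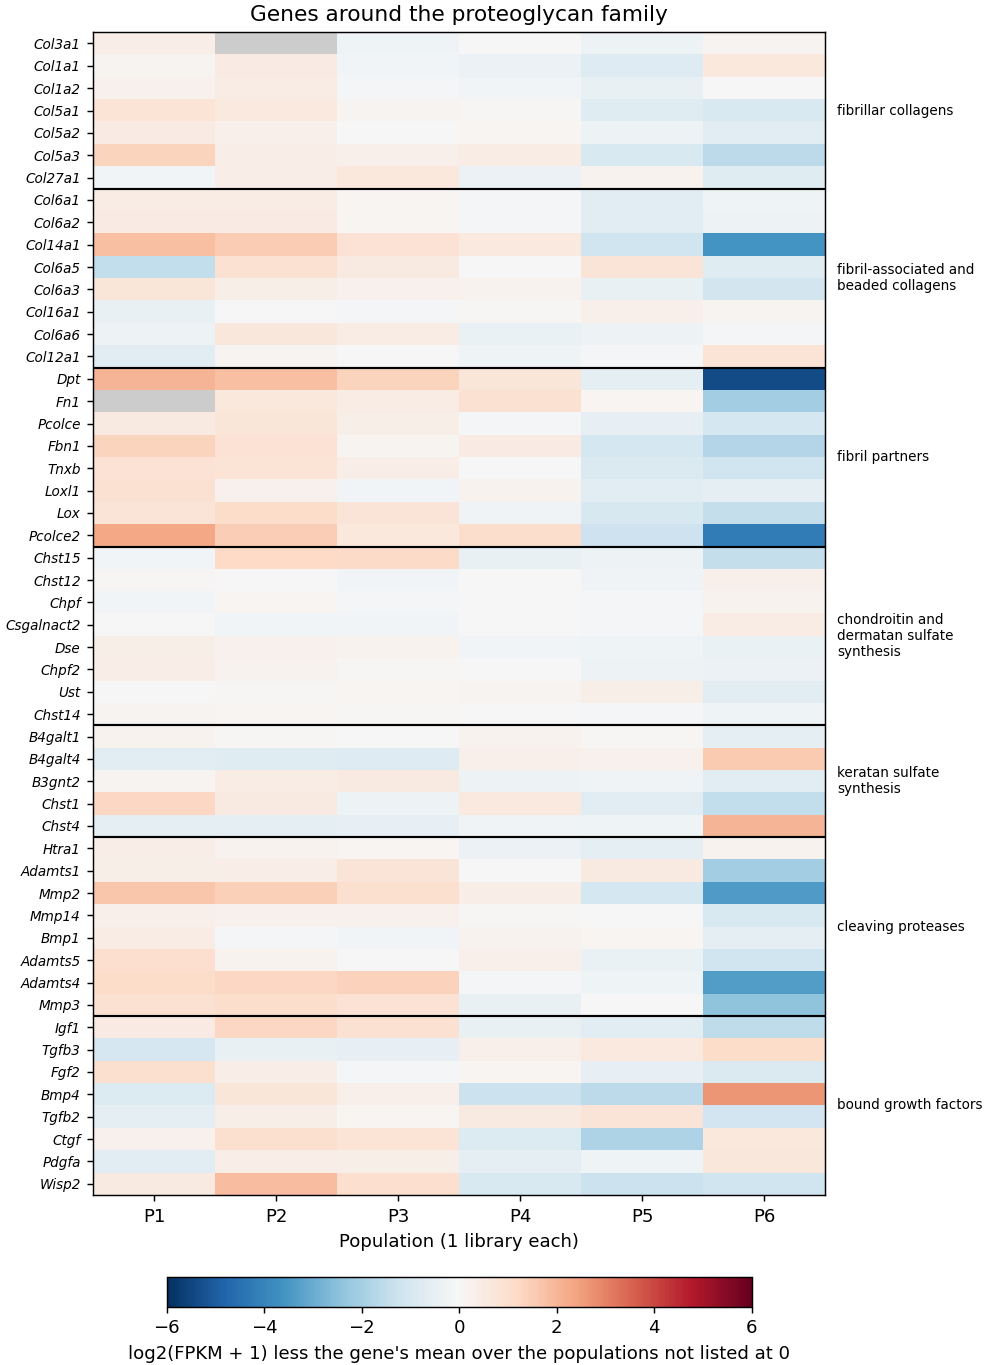
Colours show log2(FPKM + 1) less the mean of the gene over the populations in which it was not listed at 0, for 52 genes of 7 lists (rows) in P1 to P6 (columns, 1 library each), and grey marks the 2 values listed at 0. *Dpt*, *Pcolce2*, *Col14a1*, *Mmp2* and *Adamts4* are blue in P6, and *Bmp4* and *Chst4* are red there.

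Likeness of profiles was measured as the root mean square difference of log2(FPKM + 1), centred on the mean of each gene, over the 6 populations, among 8685 genes outside the family with a mean of at least 5 FPKM. *Lum* was nearest to *Tcf21*, a transcription factor gene of mesenchymal cells, at 0.03, *Lrrc17* at 0.08 and *Lpar1* at 0.13. *Tcf21* had 177, 141, 119, 72.8, 29 and 2.74 FPKM from P1 to P6. Its values followed those of *Lum* through all 6 populations. The genes nearest to *Dcn* were *Tmem50a* at 0.03, *Rps14* at 0.03 and *Umps* at 0.03, all of which varied little. Nearest to *Prelp* were *Prickle3* at 0.02, *Pfkm* at 0.04 and *Rnf145* at 0.05.

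Among the genes near *Bgn* were *Snai1* at 0.18 and *Prrx1* at 0.22. *Snai1* and *Prrx1* encode transcription factors of mesenchymal cells, and *Prrx1* had 52.7 FPKM in P2 and 3.2 in P6. The profile of *Ogn* was closest to *Ddah2* at 0.10, *Zfp385a* at 0.10 and *B4galt2* at 0.11. That of *Omd* was closest to *Prrg3* at 0.13, *Fam132a* at 0.14 and *Adcy7* at 0.15. That of *Aspn* was closest to *Vstm4* at 0.19, *Icosl* at 0.21 and *Reck* at 0.21. All distances of *Aspn*, also those to other members, use its listed 0 in P6, which can be a failed estimate. *Podn* was nearest to *Adamtsl1* at 0.22, *Sulf1* at 0.23 and *Tmem158* at 0.25. *Sulf1*, which encodes an enzyme that removes sulfate from heparan sulfate, had 65.9 FPKM in P6 and 9.37 in P5, the same ends as *Podn*. *Fmod* had no near neighbour, since the nearest, *Ano1*, *Fam180a* and *1500015O10Rik*, lay at 0.77, 0.77 and 0.80. *Ano1*, a chloride channel gene, had 1.64 FPKM in P1 and 196 in P6. Among the members themselves, *Dcn* and *Prelp* were nearest, at 0.39, and *Lum* and *Fmod* were farthest apart, at 3.75. The measure is not scaled for the size of a change, and both *Dcn* and *Prelp* varied little. Their highest values were 1.35 and 1.84 times their lowest. Their profiles were not alike in direction, since P6 was lowest for *Dcn* and highest for *Prelp*.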

How the data were processed

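Stromal cells of the omentum were sorted into 6 populations, and libraries made with the NEBNext Ultra kit were sequenced as single-end reads on an Illumina NextSeq. Per library, a table of FPKM was deposited by the authors. The submitters' processing notes name TopHat2 2.0.7, Cufflinks 2.1.1 and genome build mm10. Entries that shared a symbol (495 of 23847) were summed, and no further scaling was applied.

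The 9 members and all gene lists were chosen with earlier results of these data known. A gene was tested at 1 FPKM or more in either library (in any library for P6) and called at 2 times or more. Log2 ratios had 0.1 added to both values. Depth was estimated as the number of reads that makes low FPKM values whole, from 3316 genes with a single annotated transcript (GENCODE M21) of at least 800 nt, less a fragment length of 200 nt. Between 52.7% and 59.3% of values of up to 10 reads then lay within 0.05 of a whole number, so reads are estimates. The 95% interval of a ratio rests on estimated reads, at least 3 on either side.

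Genes named are the 9 members, 8 further family genes, up to 4 genes for each other list and comparison that passed 2 times or were most abundant, ordered by FPKM, the 3 genes nearest to each member in profile (1 of those of *Bgn* is not reported here), gate genes and the most abundant gene of each marker list. Further genes were named after their values were seen: *Gsn*, *Dse*, *Wt1*, *Rgs5*, *Tlr2*, *Tlr4*, *Hspg2*, any further call of a list, and markers described as defining or as listed at 0. Alternatives were a common sum of FPKM, median of ratios, division by *Gapdh*, quantile normalization, other minimum FPKM and thresholds, a pseudocount of 1, the largest entry for repeated symbols, and leaving out populations. Python 3.11.15 with numpy 2.4.6, pandas 2.3.3 and matplotlib 3.10.9 was used. The code for calls and depths was run on simulated data, the outcome of which is not reported here and supports no result.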

Additional observations from a re-analysis of the deposited data

Results flagged for a closer look

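*Bgn* differed in opposite directions along ALDH activity on the CD105+ and CD105- sides. Its level was 820 FPKM in P2 and 751 in P3, a ratio of 1.09 (1.08 to 1.1), but 395 in P4 and 472 in P5, a ratio of 0.836 (0.827 to 0.846). The log2 ratio of P2 over P3 exceeded that of P4 over P5 by 0.39. Both intervals exclude 1 and cover counting error only, each side has 1 library per population, and the difference was not tested. No other scaling tried reversed either ratio.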

How the results depend on the processing

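No paired analysis was possible because no population was sequenced in replicate. Of 80 recomputed counts of called members, 68 stayed within 1.5 times of the reported count. Some of these could not fall by design. Taking the largest entry for repeated symbols cannot change a count, because each member has a single entry. Leaving out a population in the comparison of P6 cannot remove a call. With a minimum of 5 FPKM, the count was 1 between P1 and P2, 2 between P2 and P4 and 3 between P3 and P5, because low members were no longer tested. At 1.5 times it was 2 between P2 and P3 and 4 between P4 and P5. At 3 times it was 0 between P4 and P5, 1 between P2 and P4, 3 between P3 and P5 and 1 for members higher in P6. Between P4 and P5 it was also 1 with a common sum of FPKM, 4 with division by *Gapdh* and 1 with a pseudocount of 1, where *Podn* and *Ogn* lay near 2 times. The cause of these scaling differences was not tested. For the other minimum FPKM, the other thresholds and the pseudocount of 1, the share of all genes called was not computed. Those counts of members therefore have no background beside them. No called log2 ratio of a member changed sign in 450 recomputed values, and 8 uncalled ones did, of *Dcn*, *Fmod* and *Prelp*. A pseudocount cannot change a sign. Of the 450 values, 262 lay outside the counting interval of the reported ratio or had no interval, as for *Aspn* in P6. The intervals printed here therefore do not cover the choice of scaling. Division by *Gapdh* shifted the median log2 ratio of all genes by 0.47 for P2 over P4, 0.53 for P3 over P5 and 0.11 for P4 over P5, and quantile normalization by 0.11 for P2 over P4. *Gapdh* itself had 214, 218, 224, 302, 326 and 270 FPKM from P1 to P6. Depth limits the low members, since *Aspn* had at most 340 estimated reads, in P2, and P6 had the fewest reads, 36.8 M.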
